A study of Mus musculus with 5 samples.

Results

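This report covers 10 genes of early blood progenitors, the transcription factor genes Myb, Myc, Runx1, Lmo2, Meis1, Sox4 and Ikzf1 and the surface protein genes Cd34, Cd93 and Cd27. They were taken by gene symbol from the annotation of the array's probe sets, each of which is a group of short probes that together give 1 intensity for a transcript. All 10 were found, with 16 probe sets among 12422 on the array and 10 of 8251 named genes. RNA was measured on 5 arrays, 1 for each of 5 mouse samples that the labels call dendritic cell progenitors of bone marrow positive for FLT3 and CD11b. The labels name no genotype, strain, age, treatment, animal or pool, and nothing states that the samples came from separate animals or cultures, so the spread between them may be technical. The 5 samples form 1 group, and no conditions could be compared.

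Blood stem and progenitor cells are held in an immature, dividing state by a network of transcription factors that bind many of the same enhancers. RUNX1, working with its partner CBFβ, and the LMO2 adaptor, which bridges TAL1 or LYL1 to other DNA-binding proteins, set up and maintain this network, while MYB and MYC keep progenitors dividing. MEIS1 acts with HOXA9 and PBX proteins in stem cells, IKZF1 (Ikaros) opens the lymphoid path and also shapes myeloid cells, and SOX4 is best known in lymphoid progenitors. CD34 is a sialomucin that marks immature cells, CD93 is a lectin-like receptor of progenitors, phagocytes and endothelium, and CD27 is a receptor of the tumour necrosis factor receptor family used to divide stem and progenitor stages.

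Signals are deposited array intensities multiplied by 1 factor per array so that every array had a median of 103.4. A gene is called above the limit where its signal passed this median on all 5 arrays; this is a rank among the probe sets of an array and no detection call. Where a gene had more than 1 probe set, the one with the highest mean log2 signal represents it and the other is given beside it. Before log2 was taken, signals below a floor of 30.0, set at the 25th percentile, were raised to it. With 1 array per sample there is no error within a sample, so neighbouring samples in any order of levels cannot be separated.

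The sort genes had signal on every array, Flt3 at 745 ± 463 and Itgam, which encodes the CD11b chain, at 477 ± 215 (SD, n = 5). Of 10 measured markers of dendritic cells, 2 were above the limit, Cd74 and Fscn1. Tcf4 was above the median on 4 arrays and Itgax and Cd86 on 3 each. The class II chain gene H2-Aa, Batf3 and Zbtb46 were above it on 1 array each, and the class II chain gene H2-Ab1 and Ccr7 on 0. Sample 1 was deposited on another scale, with a median of 392 against 66.5 to 81.2 in the other samples. Control probe sets at the 3' end of actin were brighter than those at its 5' end by a ratio between 1.08 in sample 1 and 5.20 in sample 4, and for the transferrin receptor the ratio ran from 3.14 in sample 1 to 16.7 in sample 3. These are measures of RNA and labelling quality, and their part in the differences between samples described next was not tested.

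Of the 10 genes, 5 were above the limit, namely Myb, Myc, Runx1, Lmo2 and Cd93, or 50% against 44.5% of all named genes, a share near the background. Cd34, Sox4, Cd27 and Ikzf1 lay above the median on 3 or 4 arrays, and Meis1 on 0. Among the 16 probe sets, 6 were above the limit, against 36.7% of all probe sets, 7 were above the median on some arrays and 3 on none. The count of 5 genes depended on requiring every array: with 3 of 5 arrays sufficing it was 9, against 57.3% of all named genes.

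**Figure D1:**
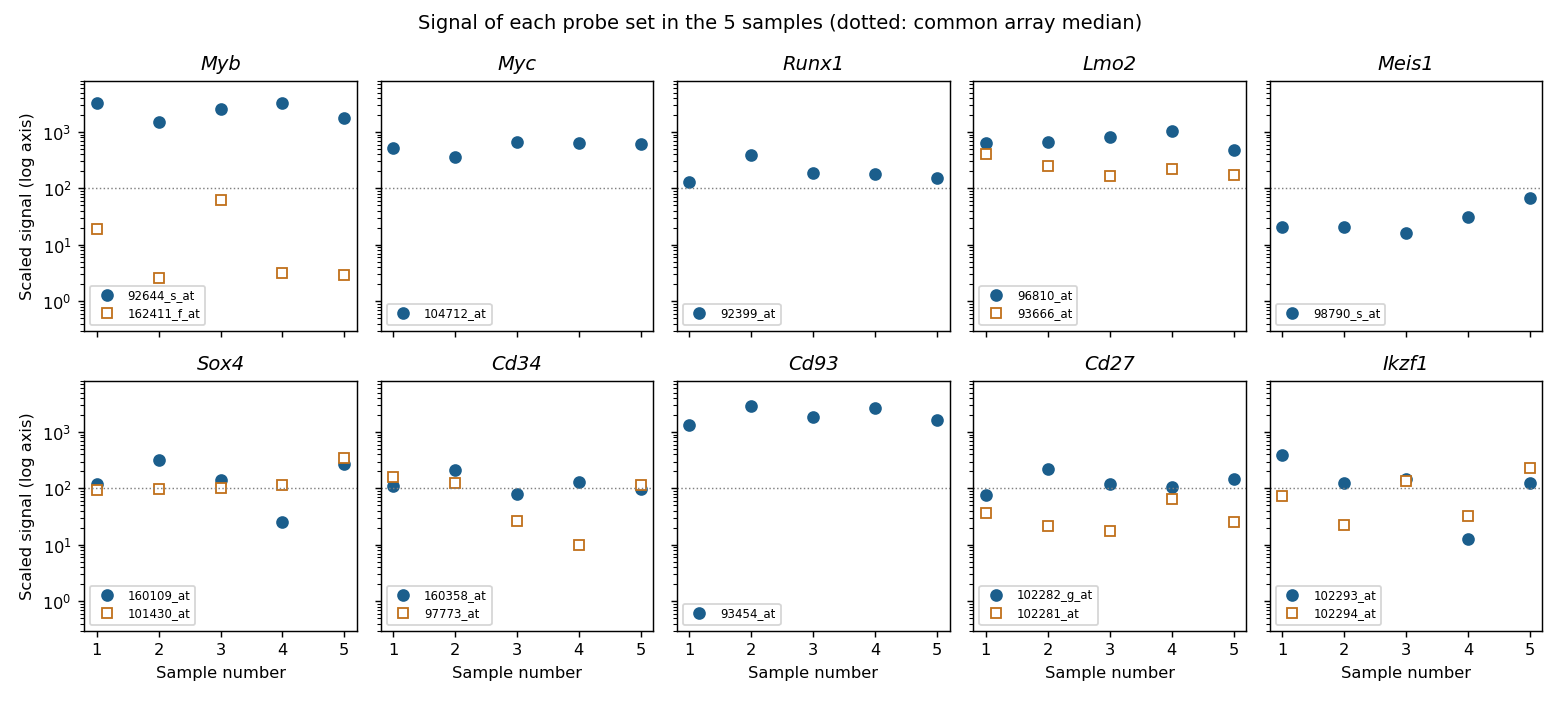
Scaled signal on a log axis of the 16 probe sets of the 10 genes in samples 1 to 5. Filled circles are the probe set that represents the gene, open squares the other probe set, and the dotted line is the common array median of 103.4; Myb and Cd93 lie far above it in every sample, Meis1 lies below it in every sample, and the pairs of Sox4, Cd34 and Ikzf1 cross it at different samples.

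Myb, a DNA-binding factor needed for the growth of immature blood cells, was among the brightest probe sets of every array. Its probe set 92644_s_at had 3316, 1524, 2600.3, 3229.8 and 1738 in samples 1 to 5, a mean of 2481 ± 828 (SD, n = 5). These levels lay between the 94.8th and 98.3rd percentile of their arrays. Samples 1, 3 and 4 were high and samples 2 and 5 low, with a ratio of 2.18 between the highest and the lowest. The other probe set, 162411_f_at, whose suffix marks probes shared within a sequence family, had 61.9 in sample 3 and between 2.56 and 19.2 in the others, so it was below the median on every array and under the floor in 4 samples.

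Myc, which drives growth and division and is itself a target of MYB, had 529, 354, 655, 636 and 610.2 in samples 1 to 5, a mean of 557 ± 123. Sample 2 was the lowest, as for Myb, and the other samples lay within 0.31 log2 units of each other. The log2 SD of 0.37 was the smallest among the 9 genes with a mean log2 signal above the median.

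Runx1, which encodes the DNA-binding subunit of core binding factor, had 131, 399, 188, 177 and 151 in samples 1 to 5, a mean of 209 ± 108. Sample 2 stood above the other samples, and the ratio of highest to lowest was 3.05. Without sample 2 the range shrank to 0.53 log2 units, from 1.61 with it. Lmo2 had 635, 653, 831, 1026 and 472 by its brighter probe set 96810_at, a mean of 724 ± 212, and 415, 253, 169, 219 and 169.5 by 93666_at, a mean of 245 ± 101. Both Lmo2 probe sets were above the limit, but the highest sample was 4 by the first and 1 by the second.

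The promoters of Myb, Runx1 and Cd34 are shown because these 3 genes are followed by their sample patterns below. Each is the 250 bases before the start of transcription in RefSeq, build GRCm38.p6, read 5' to 3' on the gene's strand. Runx1 has a distal and a proximal promoter, and its probe set gives 1 value for the gene. Capitals mark matches on either strand to CAACNG or TAACNG, bound by MYB, to CACGTG, bound by MYC with MAX, to TGTGGT, bound by RUNX factors, and to TGACAG, bound by MEIS factors; no match overlapped another.
Myb, chr10:21160985-21161234, minus strand: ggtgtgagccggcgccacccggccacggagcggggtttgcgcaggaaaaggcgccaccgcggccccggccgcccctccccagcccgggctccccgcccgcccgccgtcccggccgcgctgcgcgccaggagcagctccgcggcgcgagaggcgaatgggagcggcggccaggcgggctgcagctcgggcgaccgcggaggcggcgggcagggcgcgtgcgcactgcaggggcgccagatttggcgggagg
Runx1 distal, chr16:92826075-92826324, minus strand: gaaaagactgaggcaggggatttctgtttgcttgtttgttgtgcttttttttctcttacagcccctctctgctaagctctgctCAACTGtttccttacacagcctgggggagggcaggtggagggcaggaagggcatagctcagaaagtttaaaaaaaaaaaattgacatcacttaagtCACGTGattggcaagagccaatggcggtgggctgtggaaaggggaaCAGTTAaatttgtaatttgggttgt
Runx1 proximal, chr16:92697330-92697579, minus strand: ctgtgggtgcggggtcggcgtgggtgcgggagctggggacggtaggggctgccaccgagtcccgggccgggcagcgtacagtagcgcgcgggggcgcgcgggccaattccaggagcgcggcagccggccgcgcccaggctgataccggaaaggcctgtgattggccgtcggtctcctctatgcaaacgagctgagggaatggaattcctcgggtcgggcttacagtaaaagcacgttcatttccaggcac
Cd34, chr1:194938571-194938820, plus strand: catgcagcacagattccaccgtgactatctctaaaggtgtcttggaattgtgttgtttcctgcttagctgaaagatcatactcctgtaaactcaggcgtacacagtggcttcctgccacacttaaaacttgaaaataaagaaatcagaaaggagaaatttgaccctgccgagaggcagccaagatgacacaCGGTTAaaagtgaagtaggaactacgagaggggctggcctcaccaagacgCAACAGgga
The Myb window was 81.2% G and C with 40 CG dinucleotides, and the proximal Runx1 window 67.6% with 27, while the distal Runx1 window had 45.6% with 2 and the Cd34 window 46.4% with 6, against medians of 52.4% and 6 over 32851 promoters of the RefSeq table. The distal Runx1 window held 2 matches to CAACNG or TAACNG and 1 to CACGTG, and the Cd34 window 2 to CAACNG or TAACNG. Of all promoters, 43.1% held CAACNG or TAACNG, 6.02% CACGTG, 14.0% TGTGGT and 15.9% TGACAG. A match is a description of letters and not a site of binding.

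Meis1, a homeodomain partner of HOXA9, had 20.9, 20.3, 16.0, 30.8 and 68.9 in samples 1 to 5. It was below the median on every array, no higher than the 40.7th percentile, and under the floor in 3 samples, so its mean gives no measured difference between most samples. Its partner Hoxa9 was above the median on 4 arrays at 134 ± 35.7 and Hoxa10 on 0. Pbx2 and Pbx3, which pair with MEIS and HOX proteins, were both above the limit at 180.3 ± 55.1 and 215 ± 98.0.

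Sox4 and Ikzf1 varied most among the 10 genes. Sox4 had 121, 318, 142, 25.3 and 266 in samples 1 to 5 by probe set 160109_at, and Ikzf1 had 394, 125, 147, 12.9 and 127 by 102293_at. In both, sample 4 was under the floor, and the log2 SDs of 1.34 and 1.33 exceeded those of 98.2% and 98.0% of the probe sets tested. Without sample 4 the range of Sox4 was 1.39 log2 units, from 3.40 with it, and that of Ikzf1 1.65, from 3.71.

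The second probe sets of these genes gave other orders. Sox4 by 101430_at had 93.3, 98.7, 103, 117 and 340.3 in samples 1 to 5, with sample 5 far above the others and sample 4 not low. Ikzf1 by 102294_at had 72.2, 22.9, 137, 32.0 and 227, with sample 5 the highest and sample 2 the lowest. The low value of Sox4 in sample 4 was therefore seen by 1 of its probe sets, while Ikzf1 was under or near the floor there by both.

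Cd34 had 112, 213, 80.1, 129 and 99.1 in samples 1 to 5 by 160358_at, a mean of 127 ± 51.5, with samples 1, 2 and 4 above the median. The other probe set, 97773_at, had 157, 124, 26.6, 9.80 and 115, with samples 1, 2 and 5 above the median and samples 3 and 4 under the floor. Samples 1 and 2 were thus above the median and sample 3 below it by both, while samples 4 and 5 changed places.

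Cd93 was bright on every array, with 1342, 2947, 1837, 2658 and 1662 in samples 1 to 5, a mean of 2089 ± 683 and array percentiles of 94.8 to 97.6. Samples 2 and 4 were the highest. Cd27 had 75.7, 220.3, 121, 105 and 149.7 by 102282_g_at, a mean of 134 ± 55.1, and lay between 17.5 and 64.5 by 102281_at, below the median on every array. Of the CD27 pathway, the adaptor gene Traf2 at 427 ± 83.7 and the CD27-binding Siva1 at 819 ± 244 were above the limit. Cd70, which encodes the ligand, was above the median on 2 arrays at 62.4 ± 44.6, and Traf5 on 0.

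The limma variance test, which asks whether a probe set varied more between samples than others of like signal, called no probe set. With 5814 probe sets tested it called 0 (0.0%) at an adjusted p under 0.05, with 290 at an unadjusted p under 0.05, and the non-robust fit called 0 with 294. Of the 16 probe sets of the 10 genes, 11 had a mean above the median and were tested. Sox4 160109_at and Ikzf1 102293_at came nearest, and both had a limma adjusted p = 0.925. Of the 11, 1 had an unadjusted p under 0.05, Sox4 160109_at. The median log2 SD of the 9 genes tested was 0.53 against 0.47 over all probe sets tested. On simulated data for the same 5814 probe sets, 72 of 200 with a 4 times larger SD were called and 170 of 200 with an 8 times larger SD.

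**Figure D2:**
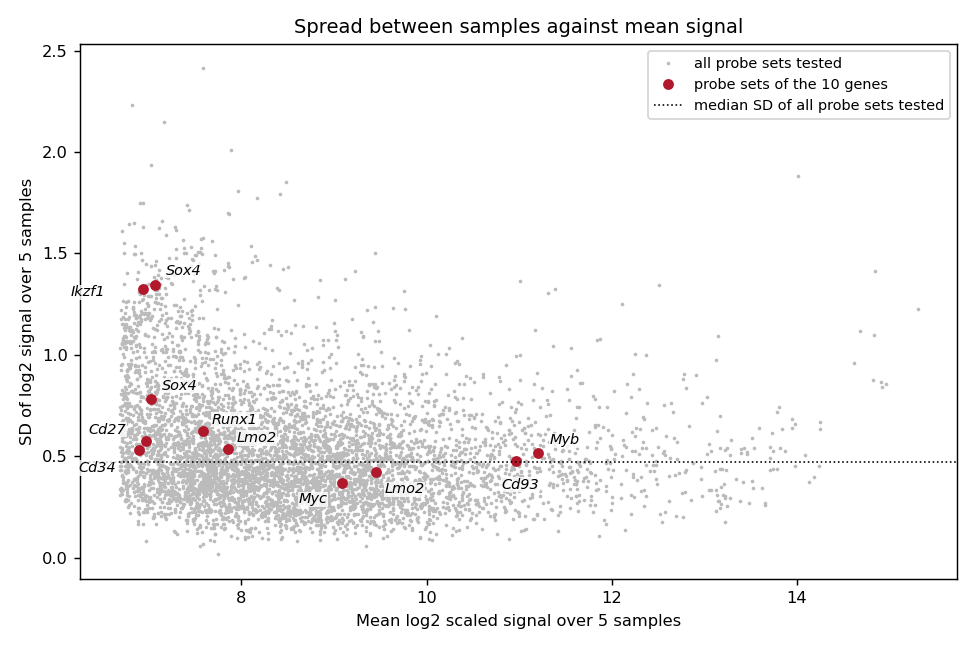
SD of log2 signal over 5 samples against mean log2 signal, for the 5814 probe sets tested (grey) and the 11 of the 10 genes (red); the dotted line is the median SD of 0.47. Sox4 at 1.34 and Ikzf1 at 1.33 lie far above the line, Myb, Cd93, Cd34, Runx1, Cd27 and the dimmer Lmo2 and Sox4 probe sets on or above it, and Myc and the brighter Lmo2 probe set below it.

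The highest sample was not shared between probe sets of a gene. Of the 6 genes with 2 probe sets, 0 had the same highest sample by both, and of the 2 of these pairs in which both probe sets had a mean above the median, Lmo2 and Sox4, also 0. Across the array, 387 of 1675 genes with 2 probe sets (23.1%) had the same highest sample by both, and 118 of 432 (27.3%) where both had a mean above the median. Differences between samples that rest on 1 probe set are therefore given as descriptions of that probe set.

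By the probe set that represents each gene, 5 of the 9 genes with a mean above the median were highest in sample 2, namely Runx1, Sox4, Cd34, Cd93 and Cd27, while Myb and Myc were lowest there. Of all probe sets tested, 21.4% were highest in sample 2. In sample 2, 6 of the 9 genes lay above their own 5-sample mean, as did 55.6% of all probe sets tested. The median of the 9 genes in sample 2 lay 0.56 log2 units above their own 5-sample means, against 0.07 over all probe sets tested. This median was not stable: it was 0.13 when every probe set counted, 0.28 with a floor at the 10th percentile, 0.14 without sample 1 and 0.09 without sample 3. By summed signal the 10 genes were highest in sample 4, at 8030, with 6774 in sample 2 and 6676 in sample 1. Endothelial and stromal markers, of which 3 of 11 were above the limit, had their highest summed signal in sample 2. It was 2035 there in a range of 1211 to 2035, with 1982 in sample 1. Mast cell and basophil markers, of which 3 of 7 were above the limit, had 3249 in sample 2 in a range of 1561 to 3249. Dendritic cell markers, of which 2 of 10 were above the limit, were also highest there, with a sum of 1629.7 in a range of 1219.7 to 1629.7. Beyond cell type markers, binding partners and stem cell factors had their highest sum there, at 21445 in a range of 10346 to 21445. Textbook MYC targets did too, at 25822 in a range of 22753 to 25822, but samples 1 and 3 were close to it at 25574 and 25457. Sums of the other separate lists were highest in samples other than sample 2. The part of these lists in the pattern was not tested, and in bulk RNA more cells of a type and more RNA per cell cannot be told apart.

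Pairs of the genes with near patterns were Runx1 and Cd27, with a root mean square difference of 0.31 log2 units over 5 samples after each gene was centred on its own mean, and Runx1 and Cd93 at 0.33. Myb was nearest to Lmo2 and to Myc, both at 0.38. These values describe 5 points and carry no test.

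Across all 4556 other named genes with a mean above the median, the patterns nearest to Myb were those of Sap30, a subunit of a histone deacetylase complex, at a difference of 0.05, Kif11, a mitotic kinesin, at 0.07 and Cdc6, a replication licensing factor, at 0.09. The median difference of these genes from Myb was 0.60. Kif11 had 697, 344, 512, 696 and 356 in samples 1 to 5, and Cdc6 had 736, 335, 586, 632 and 409, both high in samples 1, 3 and 4 and low in samples 2 and 5 as Myb was.

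For Runx1 the nearest were Cyb5r1 at 0.12, Cr1l, a complement regulator, at 0.13 and Pcmt1, a protein repair methyltransferase, at 0.14, with a median over genes of 0.66. All had their highest signal in sample 2, such as Cyb5r1 with 291, 841, 386, 450.4 and 374 in samples 1 to 5. For Cd34 they were Sqstm1, an autophagy receptor, at 0.06, Mt3, a metallothionein, at 0.10 and Mkrn1, a ubiquitin ligase, at 0.10, with a median of 0.61. These genes were picked as the nearest of 4556, so their nearness carries no test, and with quantile normalization 5 of the 9 genes remained among the nearest 3.

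**Figure D3:**
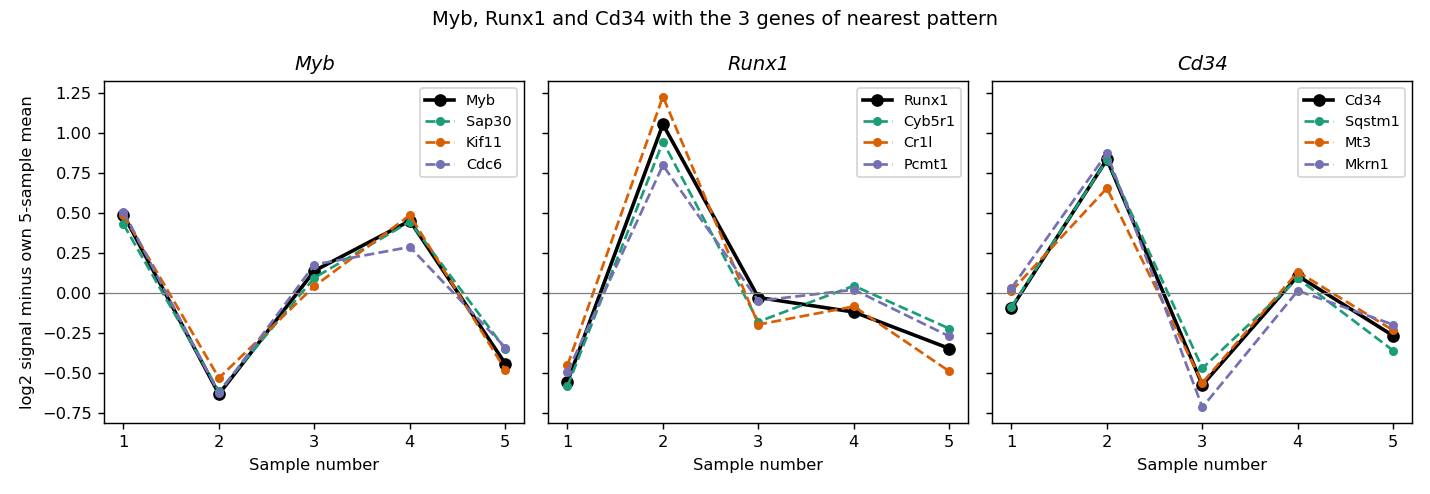
Log2 signal minus the gene's own 5-sample mean in samples 1 to 5 for Myb, Runx1 and Cd34 (black) and the 3 named genes of nearest pattern (colours); lines join values of 1 gene and imply no order of samples. Myb and its neighbours are low in samples 2 and 5, Runx1 and Cd34 and their neighbours are highest in sample 2.

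Of 43 measured partners, relatives and other regulators of progenitors 19 were above the limit (44.2%), and of 15 other progenitor surface genes 7 (46.7%), both near the 44.5% of all named genes. Among binding partners and stem cell factors the count was 11 of 20. The RUNX1 partner gene Cbfb had 3905 ± 1646 and the LMO2 partner gene Lyl1 6640 ± 2377 (SD, n = 5), both above the limit, while Tal1, a relative of Lyl1, was above the median on 4 arrays at 137 ± 64.0 and the bridging gene Ldb1 on 4 at 223 ± 123. Hoxa7 had the largest log2 SD of this group, 1.12, with 149, 1049, 364, 416 and 181 in samples 1 to 5 and sample 2 the highest. Fli1, an ETS factor of the network, had the smallest at 0.33, with a mean of 409.

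Of 14 measured paralogues of the 10 genes 3 were above the limit, namely Mybl2, Lmo1 and Lmo4. Mybl2, the cell cycle relative of Myb, had 388, 166, 214, 139 and 431 in samples 1 to 5, low in sample 2 as Myb was but also low in sample 4. The other Myb and Myc relatives Mybl1, Mycn and Mycl were above the median on 0 arrays.

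Of 9 genes of the MYC network 5 were above the limit (55.6%, against 44.5% of all named genes). Among them were Max, the obligate partner of MYC, at 662 ± 145, Mxi1 at 772 ± 146, Mxd4 at 450.0 ± 212 and Mnt at 284 ± 27.7. Mxd1 and Mxd3 were above the median on 2 arrays each. Of 15 textbook MYC targets 14 were above the limit (93.3%, against 44.5% of all named genes). They included the nucleolar genes Ncl at 3744 ± 992 and Npm1 at 7082 ± 1565 and the ribosome assembly gene Nop56 at 792 ± 111. The pyrimidine synthesis gene Cad at 206 ± 31.3 and the polyamine enzyme genes Odc1 at 348 ± 62.4 and Srm at 437 ± 205 were also above it. Many of the MYC targets are bright in most dividing cells.

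Of 7 textbook MYB targets 6 were above the limit (85.7%, against 44.5% of all named genes), among them Kit at 184 ± 35.1, Mpo and Elane. Mpo and Elane are also in the list of neutrophil markers, so the counts of these lists overlap. The survival gene Bcl2 was above the median on 3 arrays at 128 ± 104. Elane had 10647, 2027, 2760.0, 6325 and 7356 in samples 1 to 5 and Mpo 7306, 3491, 4249, 8138 and 7239. Both were lowest in sample 2, as Myb was, and both were high in sample 5, where Myb was low. Of the surface genes, Cd48 at 564 ± 198 and Cxcr4 at 726 ± 102 were above the limit, and Procr, a stem cell marker, was above the median on 1 array at 87.7 ± 13.2.

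**Figure D4:**
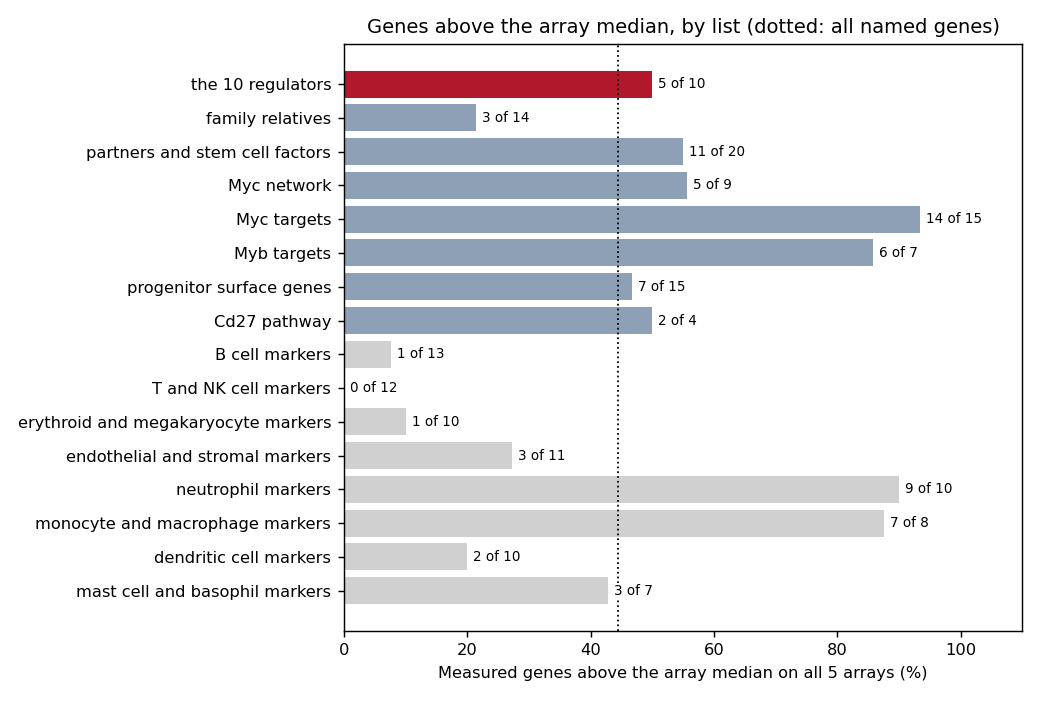
Share of measured genes above the array median on all 5 arrays for the 10 genes (red), related lists (blue) and cell type markers (grey), with counts beside the bars; the dotted line is the 44.5% of all named genes. The 10 genes lie near the line, and MYC and MYB targets and neutrophil and monocyte markers lie far above it. Mpo and Elane are in both the MYB target and the neutrophil list.

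Several of the 10 genes are also used by other cell types, so markers of these were counted. B cell markers, whose progenitors use Sox4, Ikzf1 and Cd93, were above the limit in 1 of 13 genes, Ighm at 575 ± 159. Ms4a1, Rag1 and Igll1 were above the median on 3 arrays each, Cd79a on 2 at 92 ± 106 and Cd22 on 0 at 17.9 ± 11.9. The summed signal of the B cell markers ran from 1091 to 1914 over the samples, highest in sample 1. By the median log2 difference from their own means, the 3 with a mean above the median were highest in sample 2, at 0.73, against 0.44 in sample 1. Of 12 T and NK cell markers, which accompany Cd27 and Myb in lymphoid cells, 7 were above the median on no array. Their sums ran from 363 to 749, and 0 of the 12 were above the limit. Endothelial and stromal markers, which accompany Cd34 and Cd93 in vessels, were above it in 3 of 11 genes, the endothelial genes Vwf at 408 ± 154 and Pecam1 at 159.9 ± 41.0 and the collagen gene Col1a2 at 522 ± 256. Col1a1 was above the median on 4 arrays, Vcam1 on 3, Kdr and Sox17 on 1 each, and Cdh5, Tek, Col3a1 and Cxcl12 on 0. Erythroid and megakaryocyte markers, which accompany Lmo2 and Runx1, were above it in 1 of 10 genes, with sums of 514 to 1128, highest in sample 4.

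Neutrophil and monocyte markers were the bright ones, with 9 of 10 and 7 of 8 genes above the limit. By the median log2 difference from their own means, the neutrophil markers were highest in sample 4, at 0.88, where Sox4 and Ikzf1 were lowest by their first probe sets, and lowest in sample 2, at -0.60, against -0.36 in sample 1. Their sums ran otherwise, from 64992 in sample 1 to 252159 in sample 4, and rested on a few very bright genes such as S100a8, which had 9540 in sample 1 and between 41773 and 82007 in the others. The brightest signal of any probe set was 13238 in sample 1 after scaling, against 41773 to 82007 in the others, so the sums of these markers were not used to set sample 1 against the others. Myb, the brightest of the 10 genes, had 3316 there. Monocyte and macrophage markers had their highest median difference in sample 4 as well, at 0.51, and their lowest in sample 5, at -0.33. Their part in the levels of the 10 genes was not tested.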

How the data were processed

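The deposited table gave 1 linear intensity for each of 12488 probe sets in each of 5 samples; per the labels, RNA preparation, labelling and hybridization followed an earlier publication, and no source used here names the scaling software. The 66 control probe sets were left out, arrays were scaled to a common median, the floor of 30.0 was applied and log2 was taken. Of 12422 probe sets, 10833 had 1 gene symbol in the platform annotation, 396 had several symbols and stay unnamed, and 1193 had none; RefSeq gene IDs gave 0 changes of symbol. Depth has no counterpart on arrays, and their number limits the precision. Variances were tested with limma 3.58.1 in R 4.3.3 (fitFDistRobustly with a trend on mean signal, Benjamini-Hochberg adjustment) on the 5814 probe sets whose mean log2 signal passed the median, after a check on simulated data. Genes named besides the 10 came from the first 4 measured of each list and the 3 genes nearest in pattern to Myb, Runx1 and Cd34. Of the marker lists, not all of the first 4 are named. In lists other than markers, those of largest and smallest SD above the limit were also named. Outside this rule, and chosen after their values were seen, are Vwf, Col1a1, Col1a2, Col3a1, Vcam1, Sox17, Cxcl12, S100a8 and Fscn1. The same holds for Hoxa9, Hoxa10, Pbx2, Pbx3, Lmo4, Ighm, Rag1, Igll1, Tcf4, Cd86, Batf3, Zbtb46 and Ccr7. The sort genes Flt3 and Itgam are also given. The genes and lists were chosen with earlier results of these data known. Alternatives were other scalings, floors, limits, filters and probe set choices, and leaving out each sample.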

Additional observations from a re-analysis of the deposited data

Results flagged for a closer look

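Dixon's test at 95% was run on log2 signal for 90 probe sets of the 10 genes, the listed genes and the genes of nearest pattern, and 12 passed its critical value. In 5 of these, Myb 162411_f_at, Cd22, Cd3e, Cdh5 and Fcer1a, the other 4 samples were all raised to the floor, so that they tied and the test was passed by construction. Another 5 had 1 to 3 samples at the floor, where ties narrow the spread of the rest. Of 63 probe sets with no sample at the floor 2 passed, Sox4 101430_at and Cr1l, and chance flags about 1 in 20. Over the whole array, 6.04% of the 5814 kept for the limma variance test passed Dixon's test. The 90 also hold dimmer ones left out there, so the shares are not of like sets. Sox4 by 101430_at had 340.3 in sample 5 and 93.3 to 117 in the others. The other 3 probe sets of the 10 genes that passed lay below the median on every array: Meis1 had 68.9 in sample 5, Myb 162411_f_at 61.9 in sample 3, and Cd27 102281_at 64.5 in sample 4. Among other genes, Cr1l had 1785 in sample 2 and 543 to 719 in the others. The rest were markers near or below the median: Cd22 with 37.5, Cd3e with 39.0 and H2-Ab1 with 53.3 in sample 1, Fcer1a with 36.3 in sample 2, Cdh5 with 83.0 in sample 3, and Epor with 84.6 and Alas2 with 102 in sample 5.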

How the results depend on the processing

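No paired analysis was possible because the 5 samples form 1 group. The counts above the limit do not depend on scaling, since the limit ranks probe sets within an array. With 3 of 5 arrays sufficing, 9 of the 10 genes were above the limit, against 57.3% of all named genes. With the limit at the 75th percentile, which 21.7% of all named genes passed, 4 of the 10 genes, 7 of 43 other regulators and 5 of 15 surface genes were above it; without single samples the count of the 10 genes ran from 5 to 7, that of the other regulators from 20 to 21, and that of surface genes was 7 each time. In the values as deposited, sample 1 keeps its larger scale. There the median log2 SD of the 9 genes was 1.12, as was that of all probe sets tested. With scaled arrays and single samples left out, the median of the genes tested ran from 0.42 to 0.61. The 0.42, without sample 2, covered 8 genes and lay below the 0.47 of all probe sets tested. Without any other sample it lay above that of all probe sets tested. With quantile normalization 5 of the 9 nearest genes remained. The limma variance test called 0 probe sets in every alternative run. The sample 2 median ran from 0.09 to 0.66 without single other samples. In the values as deposited it was 0.05, against -0.44 over all probe sets tested. These alternatives for the sample 2 median were chosen after seeing the data. Trimmed-mean scaling and quantile normalization kept the highest sample of 10 of 10 genes, and the values as deposited that of 2.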
